A study of Homo sapiens with 12 samples.

Results

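The 8 genes described here encode proteins of ferritin iron storage and of cellular iron handling: FTH1 and FTL (ferritin heavy and light chain), TFRC (transferrin receptor), SLC11A2 (the iron importer DMT1), SLC40A1 (the iron exporter ferroportin), NCOA4 (the receptor that carries ferritin to the lysosome), and IREB2 and ACO1 (the iron regulatory proteins IRP2 and IRP1). They were taken by symbol from the 58735 genes of the count matrix. FTH1 and FTL were chosen by their level in HEC-1A with AG-205, where they are among the most abundant genes, so their values in HEC-1A, and comparisons that use them, are given as a description without a test. RNA sequencing was performed on 12 libraries, 3 in each of 4 groups. HEC-1A, an endometrial cell line of epithelial origin, and T-HESC, a telomerase-immortalised line of endometrial stromal fibroblasts, each received either AG-205 at 15 µM, a compound sold as a ligand of the heme-binding protein PGRMC1 although its specificity for that protein is disputed, or the vehicle DMSO, over 32 h of culture. Per the study, HEC-1A came from an endometrial adenocarcinoma and T-HESC from a patient with myomas. Each cell type is thus represented by 1 cell line. Cell type, origin from a cancer and other differences between the lines cannot be told apart.

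Cells take up transferrin-bound iron through TFRC, release it from endosomes through SLC11A2, store it in the ferritin shell of FTH1 and FTL subunits and export it through SLC40A1. FTH1 carries the ferroxidase activity that oxidises iron, and FTL favours the formation of the mineral core. When iron is scarce, IREB2 and ACO1 bind a stem-loop called the iron-responsive element. Binding in a 5′ untranslated region blocks translation of the mRNA, while binding in the 3′ untranslated region of TFRC protects it from degradation, so ferritin protein can change without any change in the mRNA counts measured here. Ferritin genes are also transcribed under control of NRF2, the regulator of the antioxidant response.

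The elements are shown because they divide these mRNAs by the way iron acts on them. In the reference transcripts (GRCh38, GENCODE annotation), windows of 30 bases were searched on the transcript strand for CNNNNNCAGTGN in which the 5 bases before the loop CAGTGN pair with the 5 after it, G with T allowed. The loop is in capitals. The first sequences are those of the 5′ untranslated regions of FTH1 (chr11:61967573-61967602, minus strand), FTL (chr19:48965335-48965364, plus strand) and SLC40A1 (chr2:189580660-189580689, minus strand).
FTH1: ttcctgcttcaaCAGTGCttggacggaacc
FTL: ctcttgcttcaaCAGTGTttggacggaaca
SLC40A1: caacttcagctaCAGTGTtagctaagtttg
TFRC held 4 matches in its 3′ untranslated region, at chr3:196050978-196051007, chr3:196050574-196050603, chr3:196050509-196050538 and chr3:196050462-196050491 (minus strand), given in this order.
TFRC: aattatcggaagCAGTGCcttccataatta
TFRC: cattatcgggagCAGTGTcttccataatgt
TFRC: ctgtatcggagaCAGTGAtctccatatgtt
TFRC: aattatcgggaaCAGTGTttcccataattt
The same letters and pairing were found in the 5′ untranslated region of 0.0892% and in the 3′ untranslated region of 0.635% of 19061 transcripts, 1 for each gene. No window of SLC11A2, NCOA4, IREB2 or ACO1 matched, which says only that these letters with this full pairing are not there. An element with other letters or pairing would be missed, so these genes are not shown to lack one.

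Total counts ranged from 7168542 to 15178276 per library. HEC-1A libraries held the epithelial marker EPCAM at 243 ± 12.9 CPM with DMSO and 226 ± 26.4 CPM with AG-205 (SD, n = 3) and the stromal marker VIM at 1.17 to 2.63 CPM, where CPM is the count scaled to a common library total, with TMM factors over all libraries. In T-HESC, VIM was at 3200 to 8090 CPM and EPCAM at 0.15 to 0.64 CPM. With DMSO, 5 of 6 epithelial markers were lower in T-HESC than in HEC-1A at an adjusted p under 0.05 (edgeR). KRT19 was not, at 106 ± 3.9 CPM in T-HESC and 100 ± 3.41 CPM in HEC-1A. KRT18, although lower, was still at 155 ± 39.4 CPM in T-HESC (SD, n = 3). Among blood cell markers, PTPRC and HBB stayed at or below 1.5 and 4.67 CPM. Of 6 epithelial markers, 3 (KRT8, KRT19 and CLDN4) rose with AG-205 in HEC-1A and 0 fell. AG-205 replicate 1 of T-HESC stood apart from its group, with a root mean square log2 deviation from the group mean of 0.665 against 0.2 to 0.506 in the other 11 libraries, and among the T-HESC libraries it was lowest for 5 of 6 stromal markers and highest for VIM, the sixth. COL1A1 was at 11400, 7370 and 7380 CPM with DMSO and at 1440, 4150 and 6850 CPM with AG-205 in T-HESC. It was lower without overlap but not past the test (log2 change -1.09, SE 0.524, adjusted p = 0.98 in edgeR). Of 6 stromal markers, 1 parted the T-HESC groups in the lower and 0 in the higher direction, where 4.81% and 6.23% of all genes did. Among epithelial markers, KRT18 was lower (-1.47, SE 0.491) and KRT19 higher (1.05, SE 0.227) without overlap in T-HESC, and neither passed. The biological coefficient of variation between libraries was 10.1% for HEC-1A and reached 33.6% for T-HESC, so that the same change was measured less precisely in T-HESC. Because bulk RNA was measured, fewer cells expressing a gene and less RNA per cell cannot be told apart.

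Ferritin mRNAs were among the most counted of HEC-1A with and without AG-205. FTH1 was at 7256, 6035 and 6315 CPM in the 3 DMSO libraries and at 9253, 9368 and 7327 CPM in the 3 AG-205 libraries of HEC-1A. The AG-205 values of FTH1 thus all exceeded its DMSO values, although AG-205 replicate 3 exceeded DMSO replicate 1 only narrowly. In HEC-1A, 16.4% of the 14122 genes tested had such a gap in the higher direction, and nothing is read from it for a gene chosen by its level there. FTL was at 9997, 8065 and 8837 CPM with DMSO and at 9154, 9289 and 10906 CPM with AG-205, and the groups overlapped. The difference between AG-205 and DMSO was 0.41 (SE 0.122) on the log2 scale for FTH1 and 0.13 (SE 0.120) for FTL. In HEC-1A with AG-205 the most counted genes by mean level were FTL at 9783 ± 975 CPM (SD, n = 3), MT-CO1 at 9468 CPM, FTH1 at 8650 ± 1146 CPM (SD, n = 3) and FLNA at 6979 CPM.

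Both ferritin mRNAs are short, and counts favour long mRNAs. Levels per kilobase of the reference transcript, a scale called TPM, were formed only for the 19021 genes with a reference length. Genes without one, such as the mitochondrially encoded MT-CO1, were left out. Among the genes ranked, FTL ranked 1 and FTH1 ranked 2 in all 6 HEC-1A libraries, those with DMSO included. With AG-205 FTL was at 32020 ± 1900 TPM (SD, n = 3) and FTH1 at 20626 ± 3510 TPM, followed among these genes by ACTB at 8410 TPM. With DMSO they were at 29334 ± 2090 TPM and 15485 ± 925 TPM. The rank of FTH1 depended on the length used and on the genes ranked. With the length of all annotated exons, its mean rank in the AG-205 libraries was 5.67, while that of FTL stayed at 1. Together the ferritin genes took 1.93%, 1.61% and 1.73% of all counts in the DMSO libraries and 2.08%, 2.15% and 2.12% in the AG-205 libraries of HEC-1A.

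In T-HESC the ferritin mRNAs were lower and varied far more between libraries. FTH1 was at 848, 767 and 1414 CPM with DMSO and at 961, 2433 and 2248 CPM with AG-205. Replicates 2 and 3 with AG-205 were above all DMSO libraries, but AG-205 replicate 1 lay within the DMSO range. FTL was at 1767, 1715 and 5453 CPM with DMSO and at 4337, 8618 and 3059 CPM with AG-205, and DMSO replicate 3 was above AG-205 replicates 1 and 3. The log2 change with AG-205 was 0.88 (SE 0.406, 95% interval -0.06 to 1.82) for FTH1, with an unadjusted p of 0.0622 and an adjusted p of 0.966 (quasi-likelihood test of edgeR). For FTL it was 0.83 (SE 0.562, 95% interval -0.46 to 2.13, adjusted p = 0.993). These intervals leave room for increases larger than those of HEC-1A, so that the ferritin genes cannot be called unchanged in T-HESC.

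The ferritin values in T-HESC moved with single libraries. The FTH1 log2 change was 1.19 without AG-205 replicate 1 (adjusted p = 0.17) and 1.39 with library quality weights in limma (adjusted p = 0.0165). Without both AG-205 replicate 1 and DMSO replicate 3, a choice made after the values were seen, it was 1.5 (edgeR, adjusted p = 0.0361). The FTL log2 change was 0.27 without AG-205 replicate 2 and 1.59 without DMSO replicate 3. It was 1.77 with the quality weights (limma, adjusted p = 0.0512).

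**Figure D1:**
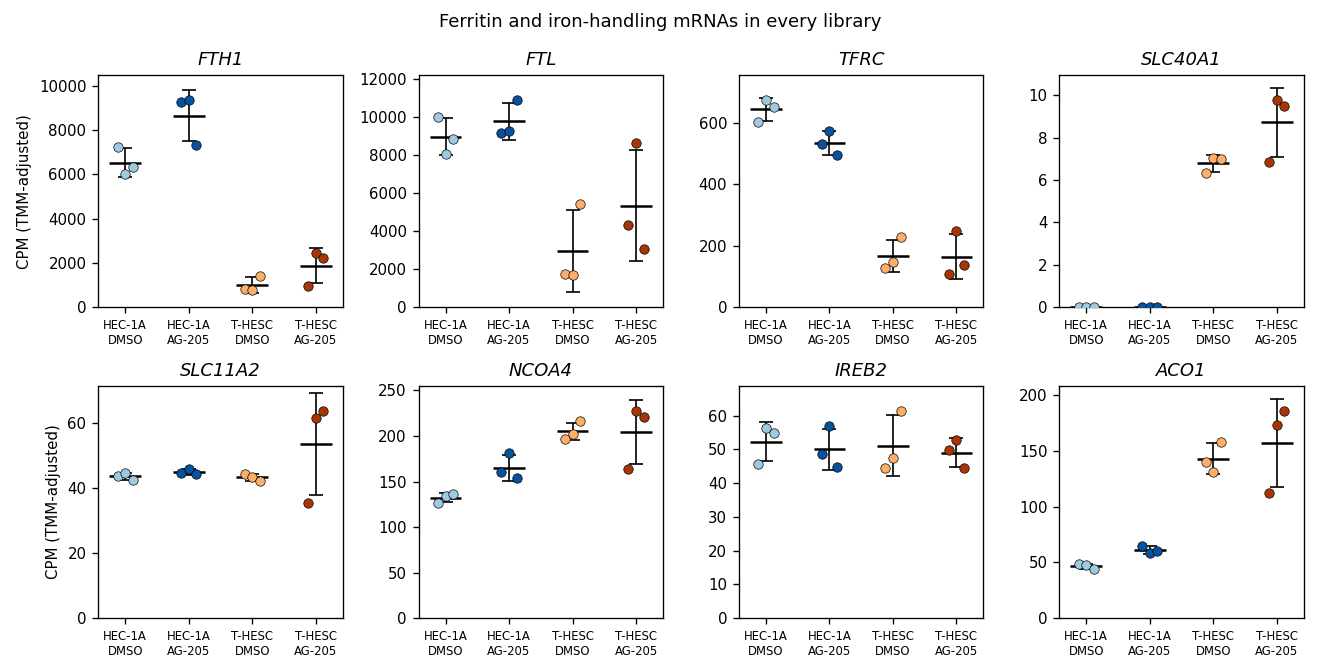
Level of each gene in the 12 libraries, in CPM on a linear axis that starts at 0 and differs between panels. Points are libraries in replicate order, horizontal lines the group means and bars the SD (n = 3). The means of FTH1, FTL and TFRC are lower in T-HESC than in HEC-1A, SLC40A1 is at 0 in every HEC-1A library, and FTL spreads from 1715 to 8618 CPM over the T-HESC libraries.

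Of the importers, TFRC was lower with AG-205 in HEC-1A but did not pass the test. TFRC was at 602, 674 and 652 CPM with DMSO and at 531, 572 and 495 CPM with AG-205 in HEC-1A, so that the groups did not overlap. Groups did not overlap in the lower direction for 15.0% of the genes tested there. The TFRC log2 change was -0.27 (SE 0.0949, unadjusted p = 0.0147), with an adjusted p of 0.0898 in edgeR's quasi-likelihood test. It was -0.25 with library quality weights, which gave an adjusted p of 0.0195 in limma, and -0.23 without AG-205 replicate 3, which gave 0.0347 in edgeR. Both settings called many more genes in HEC-1A. With the weights 1996 were higher and 1722 lower of 14122, and without that replicate 2092 and 1922 of 14461. With all 6 libraries in edgeR, 1038 were higher and 605 lower of 14122. In T-HESC TFRC was at 128, 148 and 227 CPM with DMSO and at 110, 247 and 138 CPM with AG-205, a log2 change of -0.04 (SE 0.356) with overlapping groups. SLC11A2 was at 43.6, 44.5 and 42.5 CPM with DMSO and at 44.4, 45.9 and 44.1 CPM with AG-205 in HEC-1A. Its log2 change there was 0.04 (SE 0.0895), with a 95% interval from -0.15 to 0.24. In T-HESC SLC11A2 was at 44.3, 43.3 and 42.0 CPM with DMSO and at 35.3, 61.3 and 63.7 CPM with AG-205, where replicate 1 lay below and replicates 2 and 3 above all DMSO libraries (log2 change 0.29, SE 0.259).

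The exporter SLC40A1 was detected only in T-HESC. HEC-1A had 0 counts of SLC40A1 among 63478753 counts in 6 libraries, so no fold change can be given in that line. In T-HESC it was at 6.33, 7.04 and 6.99 CPM with DMSO and at 6.86, 9.78 and 9.50 CPM with AG-205. The groups overlapped through AG-205 replicate 1, and the log2 change was 0.35 (SE 0.262, adjusted p = 0.993 in edgeR). With DMSO, SLC40A1 was at least 25.2-fold higher in T-HESC (mean 6.79 ± 0.4 CPM, SD, n = 3) than the level of 3 counts in a HEC-1A DMSO library, which was 0.269 CPM at most. This limit covers counting error only.

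NCOA4, the ferritin receptor of autophagy, rose with AG-205 in HEC-1A. NCOA4 was at 127, 134 and 136 CPM with DMSO and at 160, 181 and 154 CPM with AG-205, without overlap. Its log2 change was 0.32 (SE 0.0921, adjusted p = 0.04), or 1.25-fold, in edgeR. In T-HESC it was at 197, 202 and 216 CPM with DMSO and at 164, 228 and 221 CPM with AG-205 (log2 change -0.02, SE 0.218), and the groups overlapped.

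The iron regulatory proteins differed from each other in HEC-1A. ACO1, a cytosolic aconitase that becomes IRP1 when it loses its iron-sulphur cluster, was at 48.2, 47.7 and 43.8 CPM with DMSO and at 65.1, 58.3 and 60.1 CPM with AG-205. All AG-205 libraries were above all DMSO libraries, with a log2 change of 0.40 (SE 0.0931, adjusted p = 0.0171 in edgeR), or 1.32-fold. IREB2, whose protein is degraded when iron is replete, was at 45.6, 56.3 and 54.8 CPM with DMSO and at 48.5, 56.8 and 44.9 CPM with AG-205 (log2 change -0.06, SE 0.116), with overlapping groups. In T-HESC ACO1 was at 140, 131 and 158 CPM with DMSO and at 112, 173 and 186 CPM with AG-205 (log2 change 0.11, SE 0.247). IREB2 in T-HESC was at 44.5, 47.3 and 61.5 CPM with DMSO and at 49.8, 52.8 and 44.4 CPM with AG-205 (log2 change -0.07, SE 0.217). Both genes overlapped between the T-HESC groups.

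Of the 5 genes tested in HEC-1A, 2 rose (NCOA4 and ACO1) and 0 fell at an adjusted p under 0.05, while 7.35% of the 14122 genes tested were higher and 4.28% lower. Both calls were lost without AG-205 replicate 1 and without DMSO replicate 1, 2 or 3, and only ACO1 passed without AG-205 replicate 2, although over these alternatives the log2 changes stayed between 0.26 and 0.36 for NCOA4 and between 0.35 and 0.44 for ACO1. Without AG-205 replicate 3, the library with the fewest counts, TFRC passed as well and 3 genes were called, in a fit that called 2092 of all 14461 genes higher and 1922 lower. In T-HESC 0 of 8 passed in edgeR, 0 had an unadjusted p under 0.05 and 0 passed in DESeq2, while 1, FTH1, passed with library quality weights. Among the 13753 genes tested in T-HESC, 0.0800% were higher and 0% lower, and groups did not overlap for 6.23% in the higher and 4.81% in the lower direction. Groups overlapped for all 8 genes in T-HESC.

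**Figure D2:**
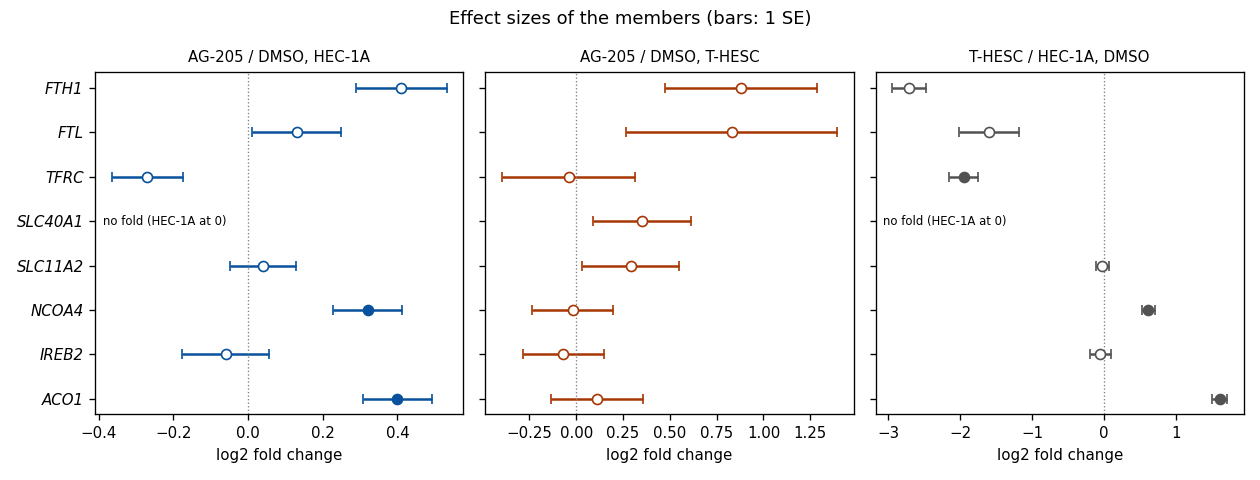
Log2 fold change of each gene with AG-205 in HEC-1A (left) and in T-HESC (middle), and of T-HESC against HEC-1A with DMSO (right). Bars are 1 SE and filled points passed the test, the axes differ between panels, and FTH1 and FTL are open on the left and right because they were not tested there. NCOA4 and ACO1 are filled in HEC-1A, none in T-HESC, and TFRC, NCOA4 and ACO1 are filled on the right.

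Whether the response differed between the lines was tested directly. The difference (T-HESC minus HEC-1A, in log2 units) was 0.25 (SE 0.397) for TFRC, 0.27 (SE 0.273) for SLC11A2, -0.33 (SE 0.218) for NCOA4, 0.00 (SE 0.240) for IREB2 and -0.26 (SE 0.258) for ACO1. None of these 5 passed (edgeR, adjusted p from 0.921 to 1), 0 had an unadjusted p under 0.05, and 0 passed in DESeq2. Among 16132 genes, 0.0434% had a higher and 0.130% a lower log2 change in T-HESC. The 95% interval for NCOA4 ran from -0.80 to 0.15 and that for ACO1 from -0.82 to 0.30, so the rise of both in HEC-1A is not shown to be particular to that line. For the ferritin genes the difference is given without a test, 0.49 (SE 0.459) for FTH1 and 0.72 (SE 0.628) for FTL.

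Without AG-205 the lines differed in 3 of the 5 genes tested, TFRC, NCOA4 and ACO1. The ferritin genes are given first, as a description. With DMSO, FTH1 was at 1010 ± 353 CPM in T-HESC and 6535 ± 640 CPM in HEC-1A (SD, n = 3), a log2 change of -2.71 (SE 0.235). FTL was at 2978 ± 2144 CPM in T-HESC and 8966 ± 973 CPM in HEC-1A (log2 change -1.60, SE 0.420). TFRC was at 168 ± 52.6 CPM and 643 ± 36.7 CPM (log2 change -1.95, SE 0.201, adjusted p = 3.06e-05 in edgeR). ACO1 was higher in T-HESC, at 143 ± 13.9 CPM against 46.6 ± 2.39 CPM (log2 change 1.61, SE 0.104, adjusted p = 1.68e-06 in edgeR), and so was NCOA4 (log2 change 0.62, SE 0.0846, adjusted p = 0.00018 in edgeR). SLC11A2 differed by -0.02 (SE 0.0916, 95% interval -0.23 to 0.19) and IREB2 by -0.05 (SE 0.148, 95% interval -0.38 to 0.29). Of the 5 genes tested, SLC40A1 and the ferritin genes left aside, 2 were higher and 1 lower, where 36.1% and 36.0% of 14789 genes were. Groups did not overlap for TFRC, NCOA4 and ACO1, and for 38.2% (higher) and 38.4% (lower) of all genes, so these shares are near the background between 2 unlike lines.

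Over the 4 groups, the order of mean levels for FTH1 was HEC-1A with AG-205, HEC-1A with DMSO, T-HESC with AG-205 and T-HESC with DMSO, and FTL had the same order. The lowest HEC-1A library for FTH1 (6035 CPM) was above the highest T-HESC library (2433 CPM). For FTL the T-HESC library with most (8618 CPM) exceeded the HEC-1A library with least (8065 CPM). For TFRC the order began with HEC-1A with DMSO, and the T-HESC groups (168 ± 52.6 and 165 ± 72.3 CPM, SD, n = 3) did not differ beyond their spread. ACO1 and NCOA4 were lowest in HEC-1A with DMSO, and their T-HESC groups overlapped. The group means of IREB2 lay between 49.0 and 52.2 CPM, within the SD of each group.

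Ratios within a library do not depend on how libraries are scaled to each other, and were formed per transcript length. They were chosen after the values were seen and are given as a description. Ferritin (FTH1 plus FTL) over TFRC, the storage against the uptake mRNA, was 146, 106 and 118 with DMSO and 172, 162 and 189 with AG-205 in HEC-1A. In T-HESC it was 107, 88.3 and 164 with DMSO and 264, 242 and 195 with AG-205. In both lines the AG-205 and DMSO ratios did not overlap, and those with AG-205 were higher, whereas FTH1, FTL and TFRC each overlapped between the T-HESC groups. Nothing is read from the gap in HEC-1A, where the ferritin genes were chosen by their level. How often ratios of other genes part the groups was not counted in either line. FTL over FTH1 was 1.90, 1.85 and 1.93 with DMSO and 1.37, 1.37 and 2.06 with AG-205 in HEC-1A. In T-HESC this ratio was 2.88, 3.09 and 5.32 with DMSO and 6.23, 4.89 and 1.88 with AG-205, so that the subunit mRNAs moved apart between libraries of the same group. IREB2 over ACO1 had a mean of 1.32 ± 0.189 with DMSO and 0.969 ± 0.157 with AG-205 in HEC-1A (SD, n = 3), where the groups overlapped.

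**Figure D3:**
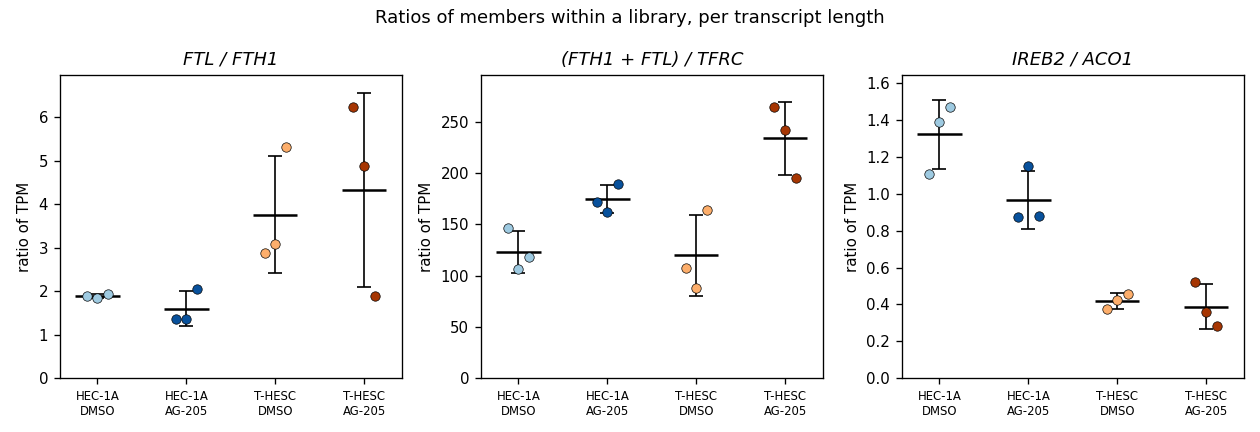
Ratios of TPM within each library, on linear axes that start at 0, for FTL over FTH1, for FTH1 plus FTL over TFRC and for IREB2 over ACO1. Points are libraries, lines the group means and bars the SD (n = 3). Ferritin over TFRC is 162 to 189 with AG-205 against 106 to 146 with DMSO in HEC-1A, and 195 to 264 against 88.3 to 164 in T-HESC.

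Around these 8 genes, lists of iron-handling genes were described in the same fits. In HEC-1A, 73 of the 97 genes on the iron lists, ferritin genes left aside, were tested, of which 6 rose and 1 fell, with a median log2 change of -0.06 against 0.00618 for all genes. The shares are set beside the 7.35% higher and 4.28% lower of all genes given above. On the list of ferritin turnover, 3 of 12 rose: NCOA4, and the autophagosome proteins MAP1LC3B (log2 change 0.47, SE 0.108, adjusted p = 0.0148 in edgeR) and GABARAPL1 (0.41, SE 0.112, adjusted p = 0.0329 in edgeR). MAP1LC3B was at 54.2, 50.8 and 52.0 CPM with DMSO and at 62.6, 74.3 and 81.0 CPM with AG-205. GABARAPL1 was at 16, 16.2 and 17.1 CPM with DMSO and at 20.5, 23.3 and 21.7 CPM with AG-205. The groups did not overlap for either gene.

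Heme genes held the largest changes among the genes that passed on the iron lists in HEC-1A, with 2 higher and 1 lower of 14 tested. HMOX1, which breaks heme down and frees its iron, was at 11.2, 10.4 and 11.0 CPM with DMSO and at 23.8, 30.8 and 20.8 CPM with AG-205 (log2 change 1.22, SE 0.148, adjusted p = 0.000215 in edgeR). FLVCR1, a heme and choline transporter of the plasma membrane, was at 24.2, 24.4 and 23.3 CPM with DMSO and at 39.8, 43.4 and 40.6 CPM with AG-205 (0.78, SE 0.0968, adjusted p = 0.000241 in edgeR). Both rose without overlap between groups. SLC48A1, which moves heme out of endosomes and lysosomes, fell from 659, 608 and 602 CPM to 499, 417 and 455 CPM (-0.44, SE 0.0979, adjusted p = 0.0121 in edgeR).

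On the remaining lists few genes passed in HEC-1A. On the list of the iron regulatory proteins and their control, 1 of 10 rose (ACO1). None passed among 2 other storage genes, 7 of uptake and ferrireduction, 3 of export, 4 other mRNAs with iron-responsive elements and 21 of mitochondrial iron and iron-sulphur assembly, with median log2 changes of -0.01, -0.22, -0.16, -0.06 and -0.09. Over all the iron lists, 17 of 73 genes had an unadjusted p under 0.05, 9 higher and 8 lower with AG-205. Of all 14122 genes, 3693 had such a p, so this share is near the background. Of 11 NRF2 targets outside iron handling, 2 rose. They were PGD, an enzyme of the pentose phosphate pathway (0.59, SE 0.0835, adjusted p = 0.000728 in edgeR), and ME1, the cytosolic malic enzyme (0.33, SE 0.0914, adjusted p = 0.0382 in edgeR). The median of these 11 was 0.11.

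In T-HESC 79 of 99 genes on the iron lists were tested. None passed in edgeR, and 4 had an unadjusted p under 0.05, all higher with AG-205. Of all 13753 genes, 740 had such a p, so this share is near the background. The median log2 change was 0.12 against 0.0216 for all genes. HMOX1 was at 17.5, 21.5 and 24.6 CPM with DMSO and at 32.3, 91.9 and 49.4 CPM with AG-205, without overlap (log2 change 1.43, SE 0.379, adjusted p = 0.45 in edgeR). FLVCR1 was at 7.83, 4.56 and 7.99 CPM with DMSO and at 19.6, 14.1 and 9.92 CPM with AG-205, again without overlap (1.09, SE 0.354, adjusted p = 0.638 in edgeR). SLC48A1 (-0.19, SE 0.267) overlapped between groups. Among the 79 genes, groups did not overlap for 8 in the higher and 0 in the lower direction. The shares over all genes were 6.23% and 4.81%. None of the 79 genes tested for a difference between the lines passed (edgeR), and 6 had an unadjusted p under 0.05, beside 1025 of all 16132 genes. With DMSO, 32 of 78 genes tested on the iron lists, ferritin genes left aside, were higher and 21 lower in T-HESC than in HEC-1A, and of the 11 NRF2 targets 0 were higher and 5 lower, beside the 36.1% and 36.0% of all genes.

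**Figure D4:**
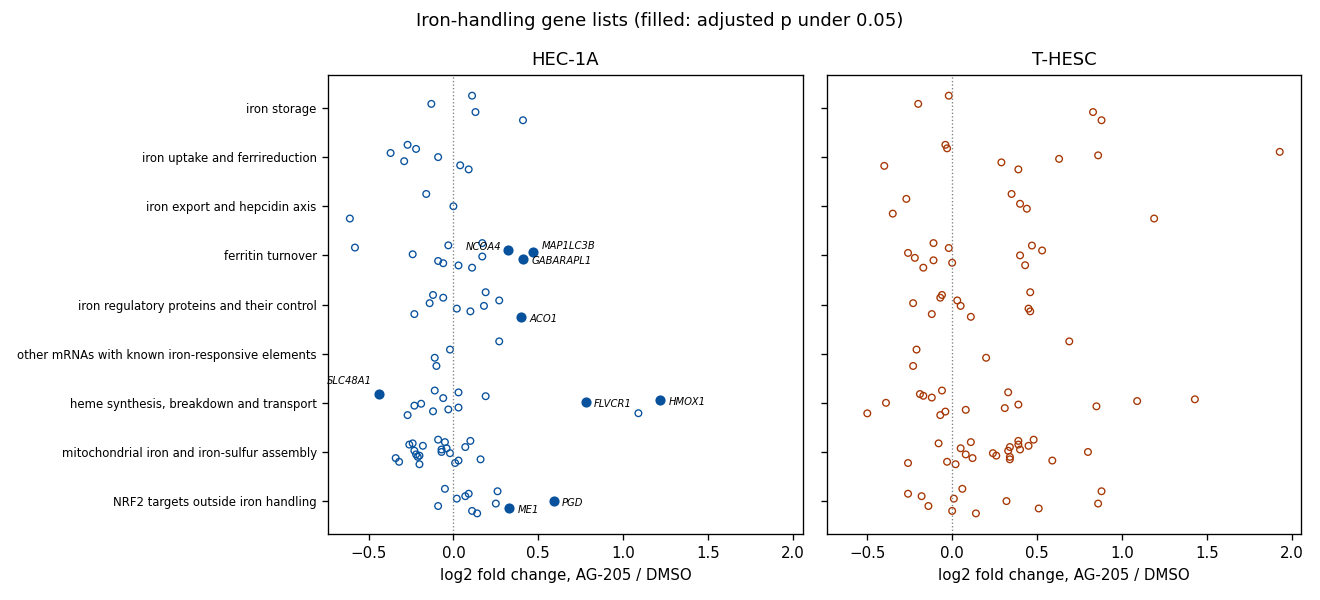
Log2 fold change with AG-205 of the tested genes on each iron list and on the NRF2 list, in HEC-1A (left) and T-HESC (right), each point a gene and filled points with names those past the test. FTH1 and FTL are open in HEC-1A because they were not tested, and heights within a row only part the points. HMOX1 (1.22) and FLVCR1 (0.78) are the highest filled points, and none is filled in T-HESC.

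The ferritin genes followed each other only in part across the T-HESC libraries. Both were highest in AG-205 replicate 2 and lowest in DMSO replicate 2. For FTL the top libraries were AG-205 replicate 2 and DMSO replicate 3. These were also the top libraries for 7 of the 11 NRF2 targets outside iron handling: NQO1, GCLC, TXNRD1, SRXN1, SLC7A11, PGD and PRDX1. Over all expressed genes these libraries also deviated together from their group means (r = 0.62), the highest of the pairs compared. The share of all genes with these libraries on top was not counted. FTH1 and HMOX1 were instead highest in AG-205 replicates 2 and 3. The part of this difference between libraries in the FTL result was not tested.

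The 5 genes most like FTL over the 12 libraries, by Pearson's r of log2 CPM, were AKR1C1 (0.988), CLCN3 (0.959), TMLHE (0.945), NIF3L1 (0.942) and SLC3A2 (0.940). Those most like FTH1 were the processed pseudogene FTH1P23 (0.989), BCL7A (0.988), ADPRHL1 (0.987), PTPDC1 (0.987) and SLC39A11 (0.986). The libraries form 2 lines with different levels, which all of these coefficients share, and they are a description only. AKR1C1, an aldo-keto reductase that converts steroids, was at 1.58, 3.31 and 28.6 CPM with DMSO and at 21.8, 82.2 and 7.21 CPM with AG-205 in T-HESC, in the same order of libraries as FTL except between DMSO replicates 1 and 2.

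**Figure D5:**
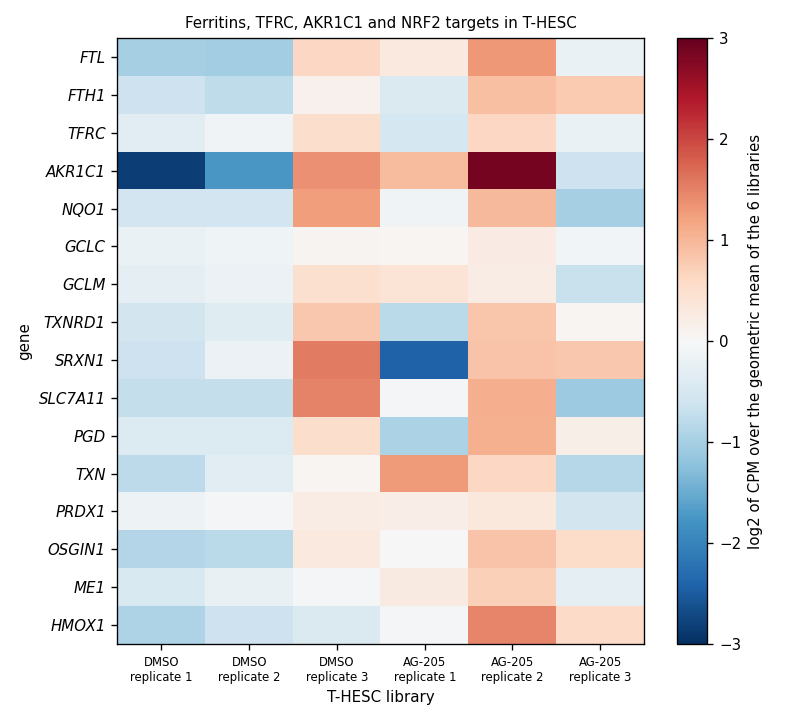
Log2 of the CPM in each T-HESC library over the geometric mean of the 6 libraries, for FTL, FTH1, TFRC, AKR1C1, the 11 NRF2 targets and HMOX1, with red above and blue below the mean. FTL and 7 of the 11 targets are highest in AG-205 replicate 2 and DMSO replicate 3, and FTH1 and HMOX1 in AG-205 replicates 2 and 3.

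Copies of the ferritin genes limit how their counts can be read. The matrix holds 25 pseudogenes of FTH1, and their counts summed to 1.31% to 2.06% of the FTH1 count in 11 libraries and to 5.04% in AG-205 replicate 1 of T-HESC. The 16 pseudogenes of FTL took 0.00422% to 0.0171%. In HEC-1A the pseudogenes are described without a test, because their reads may be those of FTH1, which was chosen by its level there. FTH1P2 was at 39.1, 34.7 and 34.7 CPM with DMSO and at 52.8, 53.9 and 62.0 CPM with AG-205 (log2 change 0.64, SE 0.105). The log2 change of FTH1P8 was 0.48 (SE 0.118). The other FTH1 pseudogenes measured there had log2 changes from 0.25 to 0.82, and groups overlapped for FTH1P23, FTH1P10 and FTH1P7. In T-HESC FTH1P2 was at 6.10, 6.05 and 7.99 CPM with DMSO and at 16.6, 14.7 and 14.3 CPM with AG-205, without overlap (1.17, SE 0.247, adjusted p = 0.296 in edgeR). Reads of FTH1 and of a processed copy of it can be exchanged, so the pseudogenes are no independent measure. BEST1, on the other strand, covers 63.2% of the exon length of FTH1, and held 24 to 118 counts per library. How reads in the shared sequence were counted is not given. The BEST1 counts therefore cannot show whether reads of FTH1 were lost there.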

How the data were processed

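Per the labels and the study's methods, polyA-selected RNA of 3 independent cell cultures was sequenced in pairs of reads, trimmed with Trimmomatic 0.38, aligned to GRCh38 with HISAT2 2.1.0 and counted with featureCounts (Subread 2.0.0). The authors deposited raw counts per gene. Strandedness and handling of multimapping reads are not given in the sources used here. The members and the gene lists were chosen with earlier results of these data known.

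Tests were run on the counts in edgeR 4.0.16 under R 4.3.3 (TMM, filterByExpr, quasi-likelihood test, Benjamini-Hochberg over all genes tested). A gene passed at an adjusted p under 0.05, its SE came from the F value, and 95% intervals used the t quantile at the degrees of freedom of the test. The ferritin genes were planned to be tested between the lines with DMSO, but are only described there. The study's own limit on the fold change (log2 above 1 or below -1) was an alternative, with DESeq2 1.42.0, limma 3.58.1 and others. With 3 libraries against 3, an exact permutation test cannot give a p under 0.1. Reference lengths (GENCODE 44) were found for 19021 of 58735 genes. Named were all 8 members, from each iron list up to 4 genes with the smallest p among those that passed, and the 5 genes most like FTH1 and FTL. Other genes were named after their values were seen. Results for some genes on the lists are not reported here. The fits were tested on simulated data. Plots used matplotlib 3.10.9.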

Additional observations from a re-analysis of the deposited data

How the results depend on the processing

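Of 5 members tested with DMSO between the lines, 3 passed, and 3 under each alternative except the study's fold limit, which left 2. For the difference between the lines 0 of 5 passed under each alternative. Few genes passed there at all, 7 higher and 21 lower of 16132 in the main fit and 0 with the replicate number as a block. A count of 0 among 5 members therefore says little. In HEC-1A, 2 members passed, but 0 at an adjusted p under 0.01, 0 with the study's fold limit, 0 with all 12 libraries in 1 fit, which brings in the spread of T-HESC, and 1 with the replicate number as a block, where NCOA4 had an adjusted p of 0.0553 (edgeR). Leaving out single libraries gave 0 to 3. In T-HESC 0 passed, but 1 (FTH1) with library quality weights and 1 without both AG-205 replicate 1 and DMSO replicate 3. Leaving out single libraries gave 0 there. Same-numbered libraries deviated together with correlations of -0.0551, 0.177 and -0.00425 in HEC-1A and 0.206, -0.425 and -0.0256 in T-HESC. Not every library correlated best with its own number. Whether same-numbered libraries share an experiment is not stated, and these correlations cannot decide it. They were treated as unpaired. The block changed no other call among the members. The mean rank of FTL by counts in HEC-1A with AG-205 was 2.00, and 1.00 per kilobase of the reference transcript or of all exons, and that of FTH1 was 1.67, and 5.67 per kilobase of all exons. Without single libraries the ranks were 1.5 to 2.5 and 1.00 to 2.00.

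Signs changed for some members that did not pass. In T-HESC the log2 changes became 0.48 for TFRC, 0.11 for NCOA4 and 0.06 for IREB2 with library quality weights, and 0.45, 0.14 and 0.05 without both libraries named above. Without single libraries they ran from -0.47 to 0.23 (TFRC), -0.13 to 0.10 (NCOA4), -0.17 to 0.07 (IREB2) and -0.02 to 0.30 (ACO1). For IREB2 in HEC-1A they ran from -0.15 to 0.00. The difference between the lines for IREB2 was -0.01 in DESeq2 and with RLE size factors, -0.07 with upper-quartile scaling, 0.00 with a mean of at least 1 CPM and with the ferritin genes left out of the totals, and -0.09 to 0.16 without single libraries. That of TFRC ran from -0.18 to 0.54, and that of ACO1 was 0.01 without both libraries. With DMSO between the lines, SLC11A2 was 0.01 without a filter and -0.05 to 0.03 without single libraries, and IREB2 was -0.16 to 0.07. The causes were not tested. Over all genes of T-HESC, 11 were higher and 0 lower with AG-205, against 119 and 22 in DESeq2, 145 and 36 without a filter, 319 and 131 with library quality weights, 175 and 31 with all 12 libraries, and 89 and 9 without both libraries. Upper-quartile scaling moved the median of all genes between the lines to -0.170, with 4631 genes higher and 6196 lower against 5335 and 5329. At this depth, counts limit SLC40A1, and the spread between libraries limits every gene of T-HESC.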

Other observations

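Metallothioneins, small proteins that bind zinc and copper and are made in response to metals and oxidants, were looked at after the values of other genes were seen. MT2A rose in HEC-1A, from 87.5, 79.9 and 77.9 CPM with DMSO to 124, 129 and 146 CPM with AG-205 (log2 change 0.70, SE 0.0984, adjusted p = 0.000703 in edgeR). In T-HESC MT2A was at 1220, 1370 and 821 CPM with DMSO and at 4920, 1543 and 2361 CPM with AG-205. The groups did not overlap, and the log2 change was 1.36 (SE 0.462, adjusted p = 0.671 in edgeR). AG-205 replicate 1, the library that stood apart, held the highest value. MT1E was at 24.1, 27.5 and 23.7 CPM with DMSO and at 88.7, 34.2 and 33.8 CPM with AG-205 in T-HESC, without overlap (1.05, SE 0.406, adjusted p = 0.805 in edgeR), and had 1 count in 1 of the 6 HEC-1A libraries. MT1X, at 0.849 ± 0.428 CPM with DMSO and 1.32 ± 0.449 CPM with AG-205 in HEC-1A (SD, n = 3), did not pass (0.56, SE 0.422, adjusted p = 0.438 in edgeR). Metallothionein genes are close copies of each other, so reads may be split between them.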
